A study of Mus musculus with 6 samples.

Results

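The genes for nucleoside transporters were examined in mouse CD4 T cells grown under conditions that favour Tregs. The 5 genes were chosen by name from the 2 families of these carriers, the concentrative *Slc28a2* and *Gm14085* (also named *Slc28a2b*) and the equilibrative *Slc29a1*, *Slc29a2* and *Slc29a3*, out of 56748 genes in the count table. They were picked with the comparison below already known, so their values are given as a description, and nothing is read from a test of them. Naïve CD4 cells of wild-type C57BL/6 mice 6 to 10 weeks old, which the labels trace to splenocytes and the study's methods to spleen and lymph nodes, were kept for 72 hr with antisense oligonucleotides (ASOs), short synthetic strands that pair with a target RNA, at 10 μM from day 0. There were 3 libraries labelled scrambled ASO, in which the strand has no intended target, and 3 labelled *Pgam* ASO, aimed at the glycolytic enzyme phosphoglycerate mutase. Polyadenylated RNA of the whole culture was sequenced without sorting, so cells that had become Tregs and cells that had not were read together. The libraries held between 15860476 and 18032805 estimated counts.

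Nucleosides are the sugar-linked bases from which cells rebuild nucleotides by salvage, and adenosine is also a signal that dampens T cells. Concentrative carriers of the SLC28 family pull nucleosides into the cell along with sodium, even against a gradient. Equilibrative carriers of the SLC29 family let them pass in either direction, and once inside, kinases trap them by adding a phosphate.

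The targeted transcripts were read first, as a check of the labels. *Pgam1* was at 600, 478 and 707 CPM (counts of the gene relative to all counts of its library, scaled by TMM) in scrambled-labelled replicates 1, 2 and 3 and at 658, 661 and 707 CPM in the *Pgam*-labelled replicates. Its log2 fold change, always given here as *Pgam* ASO minus scrambled ASO, was 0.18 (SE 0.13, adjusted p = 0.331, edgeR quasi-likelihood test with Benjamini-Hochberg adjustment). *Pgam2* had a log2 fold change of -0.84 (SE 0.31, adjusted p = 0.0854, same test). Neither passed the threshold of 0.05, so libraries are named by their labels throughout. The study reports that the *Pgam* ASOs lowered PGAM1 protein by flow cytometry, which RNA counts do not measure. It also reports lower *Foxp3* under these ASOs, the direction found below. The call of *Pgam2* changed with no filter on low counts (log2 fold change -0.83, adjusted p = 0.0292) and without replicate 3 labelled scrambled ASO (-1.11, adjusted p = 0.0144), and over all alternatives its adjusted p ran from 0.0144 to 0.286. As for the labelled cell type, *Cd4* was at 770 ± 36.2 CPM and 666 ± 26.6 CPM (SD, n = 3 each) under the scrambled and *Pgam* labels, while *Cd8a* and *Cd8b1* stayed at or below 7.02 and 10.4 CPM in the 6 libraries.

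*Slc28a2* (ENSMUSG00000027219) encodes the carrier known as CNT2, which prefers purine nucleosides and uridine. It lies on the plus strand of chromosome 2 from 122426477 to 122461137 on GRCm38. *Gm14085* (ENSMUSG00000079071) is its paralog on the same strand, from 122484941 to 122528040, and 23803 bases separate them. Their main transcripts, *Slc28a2-203* and *Gm14085-201*, have 19 and 18 exons and a coding part of 1980 bases each. Aligned over 1981 columns, the coding parts were 94.7% identical, with 103 mismatches. Identity with the next closest family gene, *Slc28a1*, was 67.4% for *Slc28a2* and 67.0% for *Gm14085*.

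The paralogs matter for reading the counts, because the estimated count of each depends on how reads from identical stretches were divided. The longest identical coding run spans 192 bases, from coding base 157 to 348 in both. The 60-base window with the most differences, from coding base 424 to 483, holds 21 mismatches and crosses from exon 6 to exon 7 in *Slc28a2-203* (chr2:122447925-122449793, intron included) and from exon 5 to exon 6 in *Gm14085-201* (chr2:122494372-122514397, intron included). It is shown because reads over it can be told apart, with the differing bases in capitals.
Slc28a2, coding window: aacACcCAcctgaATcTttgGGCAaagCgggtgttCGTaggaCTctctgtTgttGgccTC
Gm14085, coding window: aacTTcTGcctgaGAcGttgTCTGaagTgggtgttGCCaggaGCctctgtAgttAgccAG

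Of the 4966 distinct 31-base stretches in the *Gm14085* transcripts, 1929 (38.8%) were also in *Slc28a2*, and of the 4170 in *Slc28a2*, 46.3% were in *Gm14085*. Over the main transcript of *Gm14085*, 46.9% of the stretches of the 5′ UTR, 48.1% of the coding part and 76.1% of the 3′ UTR were shared with the paralog. Other genes shared few stretches with *Gm14085*. The highest share was 0.342%, with the pseudogene *Gm14086*, which had 67 counts over the 6 libraries. Unshared stretches were spread along both transcripts, so each gene had bases of its own to be counted by. The counts of each paralog are nevertheless uncertain, and their sum is given with them.

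**Figure D1:**
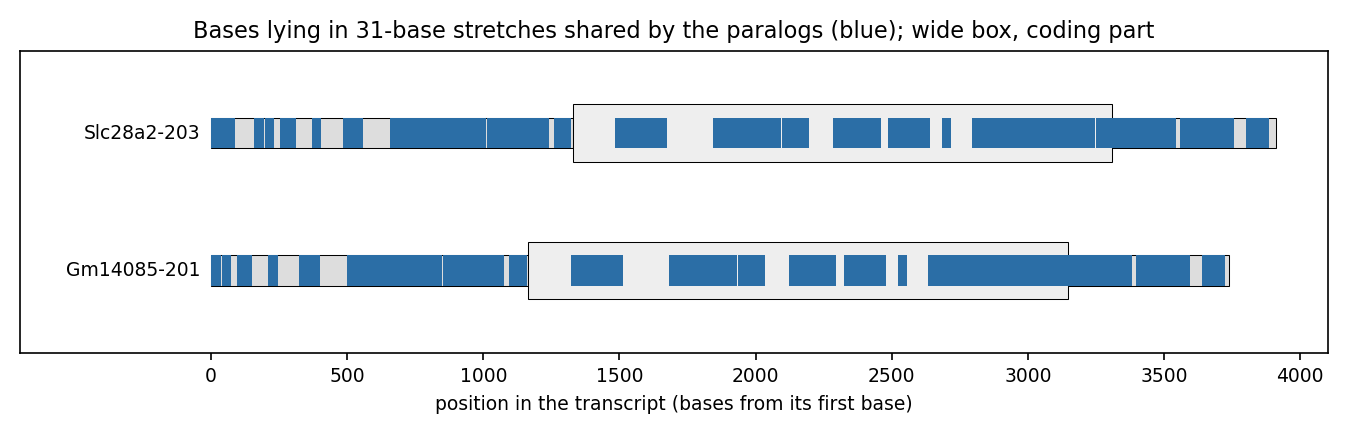
Map of the main *Slc28a2* and *Gm14085* transcripts, with position in bases from the first base on the x axis; blue marks bases within 31-base stretches found in transcripts of the other gene, and the wide box is the coding part of 1980 bases. Shared and unshared blocks alternate along both transcripts, and the 3′ UTR of *Gm14085* has the highest shared fraction of stretches (76.1%).

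The sequence before each annotated start is shown as well. The RefSeq promoter table (GRCm38.p6) held all 5 genes, with 8 start sites for *Slc29a1* and 1 for each of the others. The 250 bases upstream of *Slc28a2* (chr2:122426185-122426434, plus strand) and of *Gm14085* (chr2:122484691-122484940, plus strand) are given with matches to the searched motifs in capitals.
Slc28a2, upstream: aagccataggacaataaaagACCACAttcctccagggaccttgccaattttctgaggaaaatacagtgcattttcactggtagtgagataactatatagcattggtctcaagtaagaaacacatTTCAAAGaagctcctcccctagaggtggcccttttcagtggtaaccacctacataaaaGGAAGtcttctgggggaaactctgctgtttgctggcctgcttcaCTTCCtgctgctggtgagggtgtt
Gm14085, upstream: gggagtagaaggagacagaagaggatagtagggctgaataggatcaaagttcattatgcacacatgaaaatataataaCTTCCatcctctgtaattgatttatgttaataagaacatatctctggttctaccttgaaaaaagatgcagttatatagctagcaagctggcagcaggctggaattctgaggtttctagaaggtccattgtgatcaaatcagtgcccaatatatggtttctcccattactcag

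The windows follow the RefSeq start of each gene. For *Slc28a2* this start lies upstream of the GENCODE start at 122426477. For *Gm14085* the window ends directly before the GENCODE start at 122484941. The GENCODE transcripts do not start at matching positions, since the first 37 bases of *Gm14085-201* equal bases 160 to 196 of *Slc28a2-203*. A comparison of the windows therefore cannot show whether the likeness extends upstream. The windows had no 11-base word in common on the strand of the genes, and nothing is read from this. Each window of 300 bases, with the first 50 after the start included, was searched on both strands for CACGTG (the E-box), GTAAACA (forkhead factors), CTTTGAA (TCF and LEF factors), GGGCGG (the GC box), TATAAA (the TATA box), GGAAG (the ETS core) and TGTGGT (the RUNX core), none of which contains another. *Slc28a2* had GGAAG at 2 places, and CTTTGAA and TGTGGT at 1 place each, while *Gm14085* had GGAAG at 1 place and none of the others. Among all 32851 promoters of this length, 71.4% held GGAAG, 16.8% held TGTGGT and 5.14% held CTTTGAA. The GC box GGGCGG, found in 35.7% of promoters, was in neither paralog, but in the windows of *Slc29a2* and *Slc29a3* and in 5 of the 8 of *Slc29a1*. The GC content was 46.7% for *Slc28a2* and 40.0% for *Gm14085*, against 64.3% for *Slc29a3*, 61.7% for *Slc29a2* and a median of 52.7% over all promoters. A match describes letters in a window and not a bound site.

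*Slc28a2* was counted 1137, 2032 and 740 times in scrambled-labelled replicates 1, 2 and 3 and 464, 558 and 775 times in the *Pgam*-labelled replicates. On the CPM scale these were 64.0, 110 and 45.9, and 28.8, 35.8 and 45.9. Replicate 2 labelled scrambled ASO was the highest, and the groups met at replicate 3 of each, which were equal to 3 digits. The level was 73.2 ± 32.9 CPM and 36.8 ± 8.57 CPM (SD, n = 3 each), a log2 fold change of -0.99 (SE 0.34). Without replicate 2 labelled scrambled ASO the log2 fold change was -0.58, the smallest among the 6 ways of leaving out 1 library. In bulk RNA, fewer cells of a type and less RNA per cell cannot be told apart, and this holds for all values here. The study calls the replicates biological, but neither it nor the labels say whether they are separate animals or separate cultures of the same cells, so p-values measure only the spread between these samples, part of which may be technical.

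*Gm14085* was counted 734, 2172 and 214 times in scrambled-labelled replicates 1, 2 and 3 and 0, 10 and 34 times in the *Pgam*-labelled replicates. Their CPM were 41.3, 117 and 13.3, then 0, 0.642 and 2.01. The groups did not overlap, but the libraries labelled scrambled ASO themselves spread widely, with replicate 2 far above replicate 3. The library with 0 counts allows up to 0.186 CPM, taking 3 counts as the limit for counting error. The means were 57.3 ± 53.8 and 0.884 ± 1.03 CPM (SD, n = 3 each), a ratio of 64.8. The log2 fold change was -5.98 (SE 1.21) and ran from -7.46 to -4.91 with each library left out. Its size depends on few counts under the *Pgam* label.

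*Gm14085* made up 39.2% (Wilson 95% interval 37.0 to 41.5%), 51.7% (50.2 to 53.2%) and 22.4% (19.9 to 25.2%) of the counts of both paralogs in scrambled-labelled replicates 1, 2 and 3. Under the *Pgam* label the share was 0% (0 to 0.821%), 1.76% (0.959 to 3.21%) and 4.20% (3.02 to 5.82%). The mean share was 37.8 ± 14.7% and 1.99 ± 2.11% (SD, n = 3 each). The intervals cover counting error only, and the division of shared reads is not part of them. The share was thus higher in each library labelled scrambled ASO than in any labelled *Pgam* ASO, and it differed among the former by more than their intervals.

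The summed counts of the paralogs do not depend on how reads were divided between them. They were 1871, 4204 and 954 in scrambled-labelled replicates 1, 2 and 3 and 464, 568 and 809 in the *Pgam*-labelled replicates. The lowest library labelled scrambled ASO was above the highest labelled *Pgam* ASO. The sum was at 130 ± 86.8 CPM and 37.7 ± 9.59 CPM (SD, n = 3 each), a ratio of 3.46, with a log2 fold change of -1.79 (SE 0.50). Without replicate 2 labelled scrambled ASO it was -1.13.

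**Figure D2:**
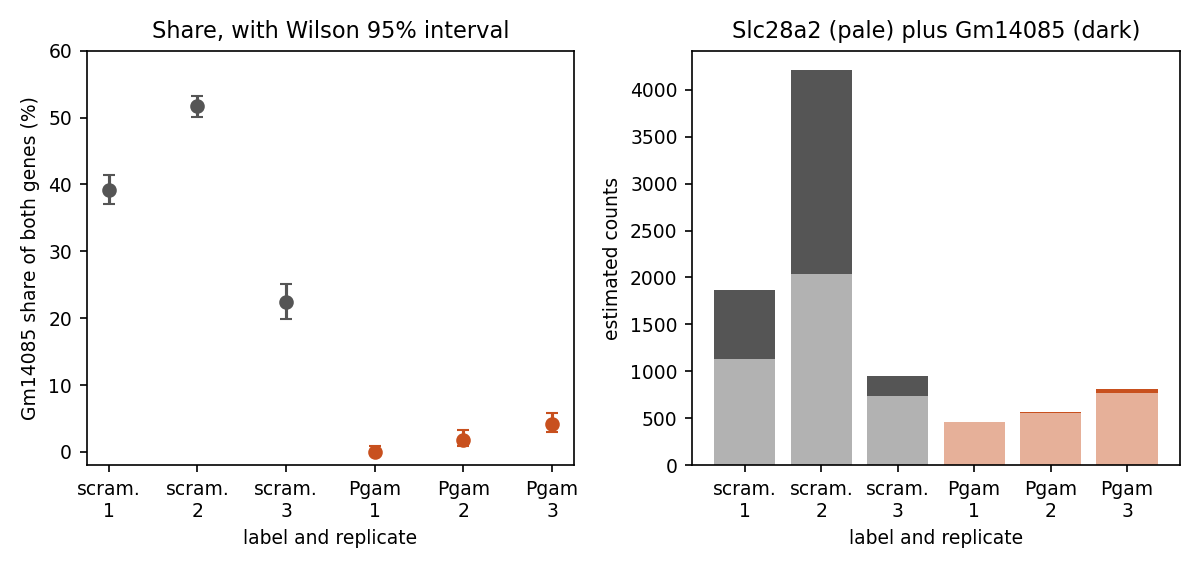
Left, *Gm14085* share of the counts of both paralogs in percent for each library, with Wilson 95% intervals; right, stacked estimated counts of *Slc28a2* (pale) and *Gm14085* (dark), with scrambled ASO in grey and *Pgam* ASO in orange. The share lies between 22.4 and 51.7% in the libraries labelled scrambled ASO and between 0 and 4.20% in the others, and replicate 2 labelled scrambled ASO has the tallest bar (4204 counts).

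Among the equilibrative carriers the groups overlapped for each of the 3 genes, as they just did for *Slc28a2*, and the group means lay close together. *Slc29a1* (chromosome 17, minus strand, 45585200 to 45599606) encodes ENT1, the main equilibrative carrier of the plasma membrane in many cells. It was at 108, 91.3 and 101 CPM in scrambled-labelled replicates 1, 2 and 3 and at 100, 93.9 and 91.2 CPM in the *Pgam*-labelled replicates. All 6 libraries lay close together, and the log2 fold change was -0.07 (SE 0.09). An antisense gene, *Gm17080*, shares 4.98% of the *Slc29a1* stretches and had 100 counts in all, and whether counting used strand is not given in the sources used here.

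*Slc29a2* (chromosome 19, plus strand, 5023860 to 5031972) encodes ENT2, which also carries nucleobases. It was counted 58, 61 and 49 times in scrambled-labelled replicates 1, 2 and 3 and 74, 61 and 41 times in the *Pgam*-labelled replicates. The *Pgam*-labelled libraries reached both above and below the others on the CPM scale, with a log2 fold change of 0.19 (SE 0.28). *Slc29a3* (chromosome 10, minus strand, 60712072 to 60752794) encodes ENT3, a carrier of lysosomal membranes. It was at 68.6, 59.3 and 65.6 CPM in scrambled-labelled replicates 1, 2 and 3 and at 79.0, 63.2 and 53.9 CPM in the *Pgam*-labelled replicates. Here too the *Pgam* libraries reached both above and below the others, with a log2 fold change of 0.02 (SE 0.13) that was -0.02 when scaled by library size alone. Of its 31-base stretches 5.51% were also in other genes, none of which shared more than the 1.64% of *Cep162* (4144 counts in all).

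**Figure D3:**
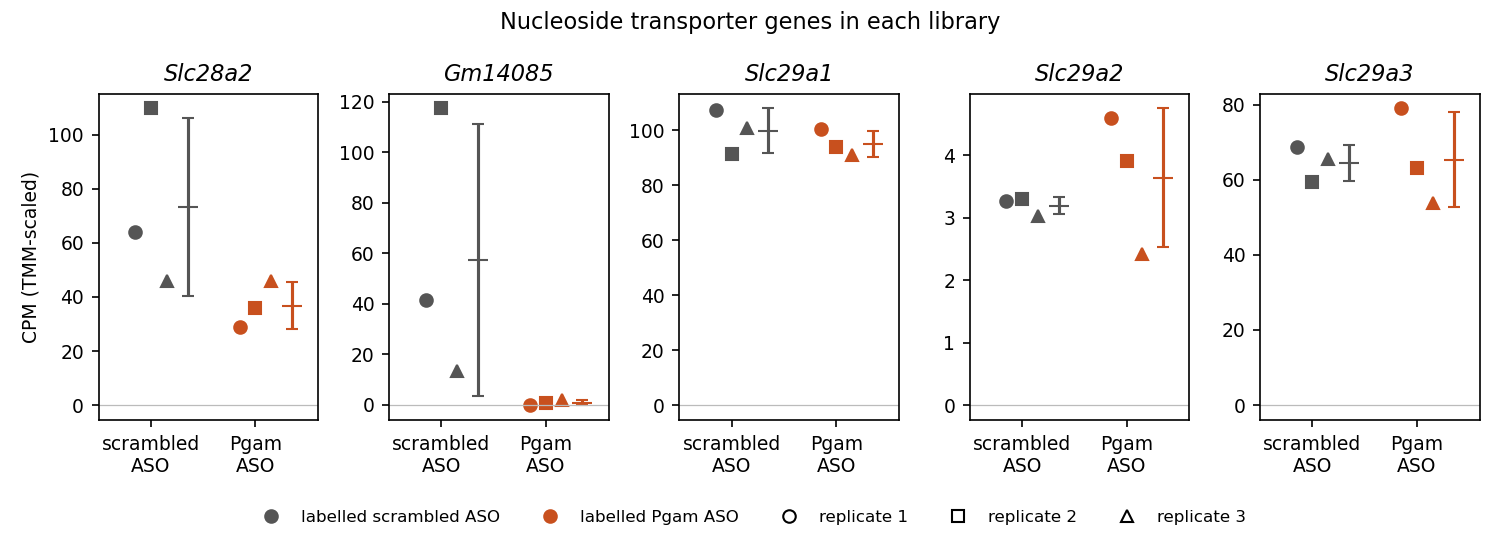
CPM (TMM-scaled, y axis starting at about 0 and differing between panels) of each gene in the 3 libraries labelled scrambled ASO (grey) and the 3 labelled *Pgam* ASO (orange); symbols give the replicate and bars the mean ± SD. *Gm14085* separates the groups, from 13.3 to 117 CPM against 0 to 2.01 CPM, the *Slc28a2* groups meet at 45.9 CPM, and the equilibrative genes overlap.

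All 5 genes passed the filter on low counts, which *Gm14085* could not have done on the libraries labelled *Pgam* ASO alone, and 1 of the 5, *Gm14085*, had an adjusted p under 0.05 in the fit over all genes. Of the 14936 genes tested, 17.2% did, and 39.5% had groups that did not overlap (19.8% lower and 19.6% higher under the *Pgam* label). Since the genes were picked with this comparison known, nothing is read from that count. The remaining genes of both families were hardly counted. *Slc28a1* had 2 counts, both in replicate 2 labelled scrambled ASO, and *Slc28a3* had 0 in every library. *Slc29a4*, a carrier of monoamines and adenosine, had 7, 5 and 0 counts in scrambled-labelled replicates 1, 2 and 3 and 9, 11 and 6 in the *Pgam*-labelled replicates. None of these 3 was tested.

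To set the genes against each other, CPM were divided by the length in kilobases of the main coding transcript in GENCODE M21. This is the transcript with the longest coding part, at full length, from 2092 bases for *Slc29a1* to 5240 bases for *Slc29a3*. *Slc29a1* has 25 annotated transcripts. Which transcripts these cells expressed was not examined, so the levels per kb and their order may depend on this choice. Under the scrambled label *Slc29a1* had the highest level, at 47.8 ± 3.89 CPM per kb (SD, n = 3). It was followed by *Slc28a2* at 18.7 ± 8.42, *Gm14085* at 15.3 ± 14.4 and *Slc29a3* at 12.3 ± 0.904 CPM per kb, whose libraries overlapped so that their order is not resolved. *Slc29a2* was lowest at 1.22 ± 0.0539 CPM per kb. Under the *Pgam* label *Slc29a1* was again first, at 45.5 ± 2.26 CPM per kb. *Slc29a3* at 12.5 ± 2.42 and *Slc28a2* at 9.42 ± 2.19 CPM per kb overlapped each other. *Slc29a2* at 1.39 ± 0.424 and *Gm14085* at 0.236 ± 0.275 CPM per kb came last, in that order and without overlap.

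The genes most like each transporter over the 6 libraries were sought among 12046 genes by Pearson's r of log2 CPM. For *Slc28a2* they were *Arid4a*, *Trim12a*, *Arhgef18*, *Arhgef1* and *Ets1*, with r from 0.997 to 0.999. For *Gm14085* they included *Tcp11l2*, *Trac*, *Trp53inp1* and *Etfbkmt*, with r from 0.9988 to 0.9996. *Tcp11l2* went from 32.2 to 4.56 CPM on average and *Trp53inp1* from 286 to 79.0 CPM. For the equilibrative genes the closest were *Tal2* for *Slc29a1* (r = 0.982), *Gm15964* for *Slc29a2* (r = 0.984) and *Rgs16* for *Slc29a3* (r = 0.996). With 6 libraries in 2 groups and so many genes searched, such values describe these libraries only.

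Genes known from resting and recirculating T cells had library values in much the same order as the concentrative carriers. The list held 11 genes, among them *Il7r* (the receptor for a survival cytokine) and *Tcf7*, a transcription factor of naïve cells. *Il7r* was at 267, 363 and 237 CPM in scrambled-labelled replicates 1, 2 and 3 and at 108, 134 and 165 CPM in the *Pgam*-labelled replicates (log2 fold change -1.09, SE 0.19, adjusted p = 0.0116). As for *Gm14085*, replicate 2 was the highest and replicate 3 the lowest under the scrambled label, and replicate 3 was the highest and replicate 1 the lowest under the *Pgam* label. This order held in both groups for 8 of the 11 genes, and for 11.1% of all tested genes.

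Of the 11 genes, 8 fell and 0 rose, against 9.15% and 8.03% of all tested genes. The median log2 fold change was -1.23, against -0.0061 for all tested genes. *Klf2*, *Klf3* and *Lef1* did not pass. The summed level of the list, of which *Ccr7* was the most abundant, was 2496, 3147 and 2157 CPM in scrambled-labelled replicates 1, 2 and 3. It was 861, 964 and 1214 CPM in the *Pgam*-labelled replicates. The list was written with earlier results of these libraries known and is not independent evidence. Its part in the values of *Slc28a2* and *Gm14085* was not tested.

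**Figure D4:**
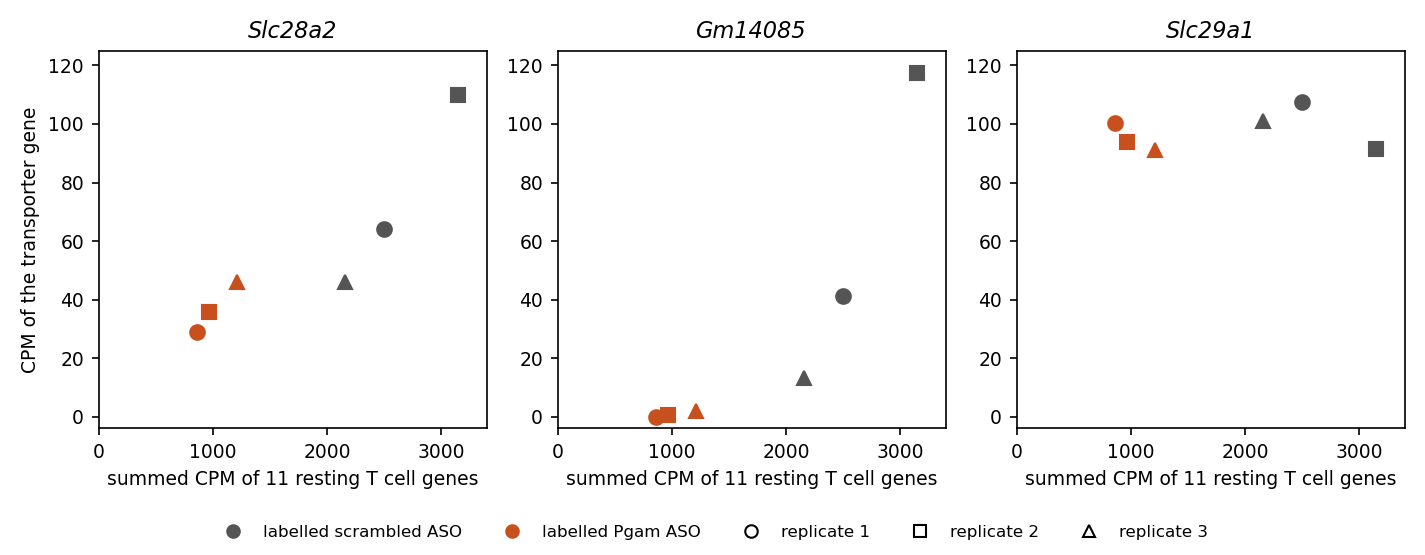
CPM of *Slc28a2*, *Gm14085* and *Slc29a1* (y axis) against the summed CPM of 11 resting T cell genes (x axis) in each library; colour gives the label and symbol the replicate. Replicate 2 labelled scrambled ASO is at the upper right for both concentrative genes (3147 CPM on the x axis), while *Slc29a1* stays between 91.2 and 108 CPM throughout.

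Markers of other cells were read in the same way. Of 15 proliferation genes, 9 rose and 0 fell, against 8.03% and 9.15% of all tested genes, and their median log2 fold change was 0.36. Their summed level was 6283, 5405 and 6533 CPM in scrambled-labelled replicates 1, 2 and 3 and 7302, 7520 and 7059 CPM in the *Pgam*-labelled replicates. Of the 4 Treg markers, *Foxp3* and *Ikzf2* fell, *Il2ra* rose and *Ctla4* did not pass. *Foxp3* was at 291 ± 74.7 CPM and 110 ± 20.6 CPM (SD, n = 3 each), with a log2 fold change of -1.41 (SE 0.20, adjusted p = 0.00567).

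Of 5 B cell markers 1 passed, against 17.2% of all tested genes. This was *Ighm*, the most abundant, which fell. It was at 320, 447 and 216 CPM in scrambled-labelled replicates 1, 2 and 3. In the *Pgam*-labelled replicates it was at 75.6, 111 and 142 CPM. Its libraries were thus ordered as for *Gm14085*, whereas *Ms4a1*, *Cd79a* and *Cd79b* stayed at or below 5.35 CPM and did not pass. Of the 7 CD4 T cell markers, *Trac* and *Cd5* fell and 5 did not pass, against 9.15% of all tested genes that fell. For 6 of the 7 the libraries labelled *Pgam* ASO all lay below the others, as they did for 19.8% of all tested genes. Of the 2 CD8 T cell markers *Cd8a* rose (log2 fold change 1.12, adjusted p = 0.0286), against 8.03% of all tested genes that rose. The more abundant *Cd8b1*, between 7.25 and 10.4 CPM in the 6 libraries, did not pass (log2 fold change -0.20, adjusted p = 0.454). In the lists for myeloid, erythroid, and mast cells and basophils, 0 of 3, 0 of 2 and 0 of 1 tested genes passed, against 17.2% of all tested genes. Lists this short cannot show a difference from that share, and nothing is read from these counts. The summed levels of these lists were at most 8.70, 2.87 and 3.27 CPM in any library. Before culture the naïve CD4 cells had been purified by negative selection, which depletes other cell types. The part of any of these in the transporter values was not tested.

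After entry, nucleosides are handled by kinases, by enzymes that cleave or deaminate them, and by nucleotidases that run the reverse step. Of 31 such genes, 25 were tested, of which 4 rose and 4 fell. The median log2 fold change was 0.12, against -0.0061 for all tested genes, of which 8.03% rose and 9.15% fell. These counts depended on the libraries used. The number that rose was 0 without replicate 1 labelled scrambled ASO or replicate 2 labelled *Pgam* ASO, 1 without replicate 1 labelled *Pgam* ASO and 2 without replicate 2 labelled scrambled ASO. It was 8 without replicate 3 labelled scrambled ASO and 7 without replicate 3 labelled *Pgam* ASO. The number that fell was 2 without replicate 2 labelled *Pgam* ASO.

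Among the kinases 1 of 8 passed, against 17.2% of all tested genes. *Tk1*, the thymidine kinase of dividing cells, rose from 123 ± 5.94 CPM to 169 ± 13.7 CPM (SD, n = 3 each; log2 fold change 0.46, SE 0.09, adjusted p = 0.0111). *Uck2*, a uridine and cytidine kinase, had the highest CPM of the list, with a log2 fold change of 0.22 (adjusted p = 0.109). *Adk*, which phosphorylates adenosine, and *Dck*, the deoxycytidine kinase, had log2 fold changes of 0.12 (SE 0.13) and 0.05 (SE 0.09), with adjusted p of 0.551 and 0.748.

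Breakdown and base salvage held the larger differences. *Samhd1*, which cleaves deoxynucleotides to deoxynucleosides, was at 774, 1059 and 599 CPM in scrambled-labelled replicates 1, 2 and 3 and at 269, 319 and 407 CPM in the *Pgam*-labelled replicates. It fell by 1.29 on the log2 scale (SE 0.23, adjusted p = 0.0144), and its libraries were ordered as for *Gm14085*. *Xdh*, which oxidises purine bases to urate, fell from 35.8 ± 4.04 to 14.3 ± 2.67 CPM (SD, n = 3 each; log2 fold change -1.32, adjusted p = 0.00102). *Upp1*, which splits uridine, fell from 20.5 ± 3.71 to 8.27 ± 0.839 CPM (SD, n = 3 each; log2 fold change -1.31, adjusted p = 0.00162).

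Those that rose in this list were *Pnp2*, a purine nucleoside phosphorylase, *Dctd*, which deaminates dCMP, and *Mtap*, of the methylthioadenosine route, with log2 fold changes of 1.25, 0.60 and 0.45. *Pnp2* had at most 54 counts in a library. *Ada*, the adenosine deaminase, had a log2 fold change of 0.70 (SE 0.23) with an adjusted p of 0.0584. *Hprt*, which salvages purine bases, had 0.28 (SE 0.09, adjusted p = 0.06). Of the nucleotidases 1 of 5 tested passed, against 17.2% of all tested genes, *Nt5c2*, which fell from 55.5 ± 4.35 to 41.6 ± 1.33 CPM (SD, n = 3 each). The nucleobase carrier *Slc43a3* had a log2 fold change of 0.08 (SE 0.11, adjusted p = 0.611).

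**Figure D5:**
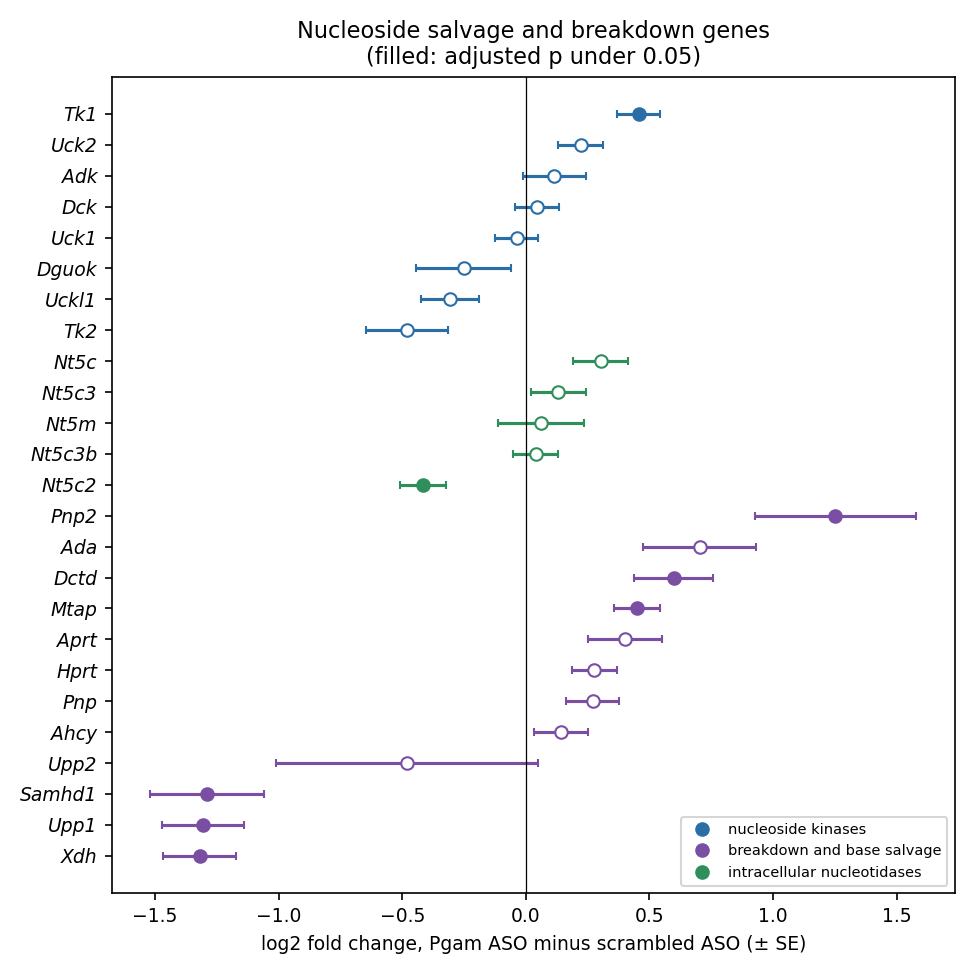
Log2 fold change (*Pgam* ASO minus scrambled ASO, ± SE, x axis) of the 25 tested salvage and breakdown genes, coloured by list; filled symbols have an adjusted p under 0.05. Of the filled symbols 4 lie above 0 and 4 below, with *Xdh* (-1.32) and *Upp1* (-1.31) lowest and *Pnp2* (1.25) highest.

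Outside the cell, adenosine is made from ATP by surface enzymes and read by receptors. Of 8 such genes 7 were tested, of which 2 fell and 2 rose, against 9.15% and 8.03% of all tested genes, with a median log2 fold change of -0.15. *Nt5e*, which encodes CD73 and forms adenosine from AMP, was at 195, 214 and 167 CPM in scrambled-labelled replicates 1, 2 and 3 and at 61.4, 72.8 and 92.3 CPM in the *Pgam*-labelled replicates. The groups did not overlap, with a log2 fold change of -1.35 (SE 0.15, adjusted p = 0.00109). *Entpd1*, which encodes CD39 and acts before it, fell by 1.32 on the log2 scale (SE 0.23, adjusted p = 0.00768) from a level of 6.18 ± 0.531 CPM (SD, n = 3).

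*Enpp1* rose by 0.65 (SE 0.15, adjusted p = 0.0187) and the receptor gene *Adora3* by 2.39 (SE 0.59, adjusted p = 0.0259), the latter from no more than 17 counts in any library. The receptor gene *Adora2a* was at 30.7 ± 1.27 and 27.7 ± 2.69 CPM (SD, n = 3 each), with a log2 fold change of -0.15 (adjusted p = 0.362). *Adora2b* and *Dpp4* had log2 fold changes of 0.88 and -0.55, with adjusted p of 0.0552 and 0.0888, and *Adora1* had 0 counts.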

How the data were processed

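RNA-seq of 6 libraries from cultured CD4 cells was used. The authors deposited a table of estimated counts per Ensembl gene, made with kallisto against GRCm38 according to the submitters' processing notes. The version, the annotation and the handling of strand are not given in the sources used here. Of 56748 gene IDs, 52073 had a symbol and 52125 were in GENCODE M21, which gave coordinates and transcripts. The values are whole numbers and were rounded again.

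The comparison used edgeR 4.0.16 under R 4.3.3 (filterByExpr, TMM, robust quasi-likelihood test, two-sided, Benjamini-Hochberg over all 14936 tested genes, threshold 0.05). The SE is the log2 fold change divided by the square root of F. Floors are 3 counts, shares have Wilson 95% intervals, and both cover counting error only. Log2 CPM used a prior count of 2. Stretches of 31 bases, the usual kallisto length, were compared in either orientation over all transcripts with Python 3.11.15, and coding parts were aligned with Biopython 1.88. The motifs were chosen without a rule. Named genes are the 5 transporters, *Pgam1*, *Pgam2*, the other family genes, the fixed lists, and for each transporter the 5 genes with the highest r among those with a mean log2 CPM of at least 1. Some genes that this rule names are not reported here on their own. Members and lists were chosen with earlier results of these data known.

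The procedure was tested on simulated data drawn in 2 ways, from gene-wise and from trended dispersions. The first gave a share of false calls well above the nominal 5% for edgeR and higher still for DESeq2, and the second was added after this was seen. With trended dispersions the share was near the nominal level for edgeR and above it for DESeq2. The tests of single genes may thus be too lenient where dispersions differ strongly between genes.

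The alternatives were RLE factors, library size alone, DESeq2 1.42.0, no filter, at least 10 counts in every library, a replicate block, each library left out, and the paralogs summed. Pairs of libraries differed by 6.75 to 23.6 chi-square units per degree of freedom within a label and by 15.3 to 76.3 between labels; all pairs differed beyond sampling noise.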

Additional observations from a re-analysis of the deposited data

How the results depend on the processing

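The log2 fold changes of *Slc28a2*, *Gm14085* and their sum were below 0 under every alternative run. With each library left out in turn they ran from -1.23 to -0.58, from -7.46 to -4.91 and from -2.14 to -1.13. *Slc29a1* ran from -0.13 to -0.02, *Slc29a2* from -0.01 to 0.42 and *Slc29a3* from -0.14 to 0.15. The mean *Gm14085* share ran from 30.8 to 45.4% under the scrambled label and from 0.880 to 2.98% under the *Pgam* label. Summed with the gene that shares its stretches, each paralog had a log2 fold change of -1.79, which follows from the sum itself. Under the filter of at least 10 counts in every library *Gm14085* had no value.

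Of the salvage and breakdown genes 7 rose with DESeq2 and 8 with no filter on low counts, and between 0 and 8 rose and between 2 and 5 fell with each library left out. Over all genes, 2565 passed, 3213 with DESeq2, 3732 with no filter and between 391 and 3484 with each library left out. The cause was not tested. *Pgam2* passed with no filter (adjusted p = 0.0292) and without replicate 3 labelled scrambled ASO (log2 fold change -1.11, adjusted p = 0.0144).

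Deviations from the group means had a mean r of -0.0724 for equal replicate numbers (0.0534, -0.0340 and -0.237). For different numbers the mean was 0.0364, with values from -0.254 to 0.280. With 3 libraries per label these values cannot show whether equal numbers share an animal or a batch. With the replicate block 1235 genes passed, and 2 of the salvage and breakdown genes rose and 4 fell.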
